A study of Mus musculus with 9 samples.

Results

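The 38 genes described here encode the protein folding and disposal machinery of the endoplasmic reticulum (ER) and its ATF6 and IRE1 sensors. Membership was set by gene symbol and known role in this pathway, with no threshold on a measured value, and all 38 are among the 20731 genes of the count table. By role they are 3 sensors and transcription factors, 10 genes of the BiP and HSP90 system with its cofactors, 4 of the lectin chaperone cycle, 7 thiol oxidoreductases, 10 of ER-associated degradation (ERAD) and 4 of the translocon. They were followed in brain RNA of 9 mice, taken on day 2 after cerebral venous sinus thrombosis (CVST) was induced in the superior sagittal sinus with ferric chloride, so that every group carries the thrombosis and none is a sham control. By the methods the mice were male C57BL/6J of 8 to 10 weeks. The 3 groups, with 3 mice each, were CVST alone, CVST+Ligation, in which the deep cervical lymph nodes were also tied off, and 4-PBA, which had the thrombosis, the ligation and 4-phenylbutyric acid. This compound is used as an inhibitor of ER stress. The methods give 100 mg/kg by intraperitoneal injection 30 min before modelling, whereas the description of the data set places the treatment after ligation. By the methods, control mice were given the solvent, physiological saline. Whether the CVST and CVST+Ligation mice were among these is not stated. The labels name the tissue as brain and the description of the data set as cortex.

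Unfolded protein in the ER lumen draws the chaperone BiP away from the sensors IRE1, ATF6 and PERK. IRE1 then splices the Xbp1 messenger into the form that encodes an active factor, while ATF6 travels to the Golgi, is cut there and enters the nucleus. Both factors raise chaperones, oxidoreductases and ERAD components, and PERK acts instead through translation and the factors ATF4 and CHOP. Counts per gene do not show Xbp1 splicing, cleavage of ATF6 or protein levels.

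The element through which ATF6 and XBP1 act on many of these genes, the ER stress response element (ERSE), was searched for in the RefSeq promoters of GRCm38.p6, which run from 250 bases before to 50 bases after each start site. It was spelled CCAAT, 9 bases of any kind and CCACG, on either strand, and 32 of the 38 genes were in the promoter table. Its exact form was found in 9 of the 32, Hspa5, Hsp90b1, Calr, Canx, Pdia6, Dnajc3, Creld2, Syvn1 and Derl3, and in 0.137% of the 27025 genes of the table. A shorter form, ERSE-II, spelled ATTGG, 1 base of any kind and CCACG, was found in Herpud1 and Dnajb11 (0.0444% of all genes). The core of the unfolded protein response element bound by XBP1, TGACGTGG, was found in Txndc5 and Txndc11 (0.714% of all genes). The elements of the genes whose levels are followed most closely below are shown 5′ to 3′ with 5 bases on each side, on the strand that reads CCAAT or ATTGG first, with the boxes of the element in capitals.
Hspa5 (chr2:34772020-34772048, plus strand): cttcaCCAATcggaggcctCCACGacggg
Hsp90b1 (chr10:86705528-86705556, plus strand): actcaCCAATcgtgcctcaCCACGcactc
Calr (chr8:84847070-84847098, plus strand): atgggCCAATgagggtcgaCCACGcgttg
Canx (chr11:50325795-50325823, minus strand): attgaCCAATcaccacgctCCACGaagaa
Derl3 (chr10:75893237-75893265, minus strand): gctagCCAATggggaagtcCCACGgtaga
Herpud1 (chr8:94386372-94386392, plus strand): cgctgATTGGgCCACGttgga
The boxes are identical in the first 5 by the search itself, and the bases between them differ in every one. Distances are from the RefSeq start site, and the GENCODE interval given for Hspa5 below opens upstream of that site, so that its element lies inside the interval. The element of Hspa5 begins 65 bases before the start site, those of Canx and Derl3 145 and 156 bases before it. Hsp90b1 holds a second copy farther upstream, 212 bases before the start. A match describes these letters and is no evidence of binding in these brains.

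Totals per library ran from 18100739 to 25091498 counts, and the 38 genes took 0.559% to 0.677% of them. Levels are given as CPM, the count scaled to the size of its library, after TMM normalization, which also corrects for composition. All 38 passed edgeR's expression filter, with 14746 genes in all, and 3 counts, the smallest level a library was taken to show, correspond to 0.114 to 0.163 CPM by counting error alone. Differences between groups were tested with edgeR's quasi-likelihood test in 1 fit of all libraries with Benjamini-Hochberg adjustment over all genes tested. For 1 gene, 3 mice against 3 can give no exact permutation p below 0.1. The same libraries enter more than 1 comparison, so the comparisons are not independent of each other.

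Replicate 3 of the CVST group and replicate 2 of the CVST+Ligation group differed most in counts from the others of their group. Over all genes tested the chi-square per degree of freedom was 85.2 and 72.2 for the pairs of the former. It was 99.8 and 90.7 for those of the latter and 24.6 to 48.7 for the other pairs within groups. In the correlation of log2 CPM only the latter stood apart, at r = 0.946 and 0.947. CVST replicate 3 had 0.96 with both others of its group, within the 0.959 to 0.982 of the other pairs. Without CVST+Ligation replicate 2 the share of all genes with an unadjusted p below 0.05 for 4-PBA against ligation alone was 10%, beside 3.23% with it, and edgeR called 541 genes after adjustment for 4-PBA against CVST, beside 18. None of the 38 was among them. The median log2 fold change of the 38 without it was -0.06 after ligation and 0.08 for 4-PBA against ligation alone, and that of Hspa5 0.09 and 0.06. Among the 38 genes CVST replicate 3 was the more extreme. Of the 9 libraries it was the highest for 13 of the 38 genes and the lowest for 10, 34.2% and 26.3%, beside 21.3% and 20.4% of all genes tested. The deviations of CVST replicate 3 were lower in longer genes (r across all genes = -0.226, a description over genes, which are not independent). The trend of CVST+Ligation replicate 1 was the opposite and nearly as large (r = 0.21), and the other 7 libraries lay between -0.084 and 0.097. Genes longer than the median of the 38, 1513.5 bases, were lowest in CVST replicate 3 in 27.5% of cases and shorter ones in 13.7%. For comparisons with the CVST group, values without CVST replicate 3 are given beside many of the genes it moved. Markers of brain regions also differed between the groups. The summed level of 7 markers of midbrain dopamine neurons was 18.0 to 19.5 CPM in the CVST group, 168 to 206 in the CVST+Ligation group and 226 to 229 in the 4-PBA group. That of 7 cortical excitatory markers was 1899 to 2343, 551 to 1735 and 656 to 958. Striatal markers, 7 of 7 tested, summed to 1010 to 1703, 181 to 491 and 232 to 1183, and thalamic markers, 7 of 7 tested, to 61.2 to 112, 223 to 579 and 383 to 706. Choroid plexus markers, 6 of 6 tested, ran from 788 to 978, from 13.2 to 857 and from 443 to 3119, the last in 4-PBA replicate 1. Hypothalamic peptide markers, 6 of 7 tested, summed to 2.17 to 3.36, 2.19 to 20.7 and 277 to 472. Cerebellar markers, 5 of 7 tested, reached 938 in replicate 2 of the CVST+Ligation group and at most 221 in any other library. Pan-neuronal markers, 5 of 5 tested, summed to 3876 to 4903, 3604 to 4012 and 2945 to 3522. Oligodendrocyte markers, 5 of 5 tested, summed to 2276 to 2929, 2287 to 5093 and 3972 to 6431, and microglial markers, 5 of 5 tested, to 258 to 295, 198 to 257 and 217 to 234. The part of these shifts in the values of the 38 genes was not tested, and in bulk tissue fewer cells of a type and less RNA per cell cannot be told apart. Whether the piece of brain taken differed between the groups was not tested either. Such a difference could not be told apart from ligation or 4-PBA in the comparisons below.

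After ligation, none of the 38 transcripts of the folding machinery passed the test. At an unadjusted p below 0.05 edgeR called 0 of the 38 genes, beside 9.64% of all genes tested (5.47% higher and 4.18% lower), and at an adjusted p below 0.05 it called 0 (all genes 0.0203%). DESeq2 called 2 of them before adjustment, Canx and Derl1 (11.4% of all genes), and 0 after it, when it called 264 genes in all. The lowest adjusted p among the 38 was 0.516, that of Canx. The median log2 fold change was -0.05, and 0.00 over all genes, with 15 of the 38 above 0 (all genes 50.3%). For 28 of the 38 the 95% interval of the fold lay within 1.5-fold in both directions, as it did for 31.4% of all genes, and for 34 it lay within 2-fold (63.1%). The groups did not overlap for 4 genes, Canx and Derl1 higher after ligation and Txndc11 and Derl3 lower, 10.5% of the 38 beside 13.8% of all genes (6.61% higher and 7.21% lower).

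With 4-PBA none of the 38 passed after adjustment either. Against the CVST+Ligation group 1 of the 38 genes, Derl3, had an unadjusted p below 0.05 and was higher (all genes 3.23%, of which 1.81% higher and 1.42% lower), and 0 passed after adjustment by edgeR, DESeq2 or limma (0% of all genes with edgeR, 22 genes with DESeq2 and 2 with limma at a pseudocount of 1). Of the 38, 28 had a log2 fold change above 0, where 47% of all genes did, with a median of 0.06 against -0.02. In 28 genes the interval lay within 1.5-fold (37.8%) and in 35 within 2-fold (68.3%). The groups did not overlap for Manf and Derl3, both higher with 4-PBA, 5.26% of the 38 beside 7.73% of all genes (3.51% higher and 4.22% lower). Against the CVST group, Canx alone had an unadjusted p below 0.05 and was higher (all genes 15.4%, of which 8.07% higher and 7.33% lower), and 0 passed after adjustment (0.122%), with 2 before adjustment by DESeq2 (17.7% of all genes) and 0 after it, when DESeq2 called 855 genes in all. Here 5 genes did not overlap, Dnajb9, Canx, Derl1 and Ssr3 higher and Txndc11 lower (all genes 23.7%, of which 12.3% higher and 11.5% lower). The median log2 fold change was 0.02 (all genes -0.01), with 25 of the 38 above 0 (48.9%), 28 intervals within 1.5-fold (30%) and 34 within 2-fold (60.6%).

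**Figure D1:**
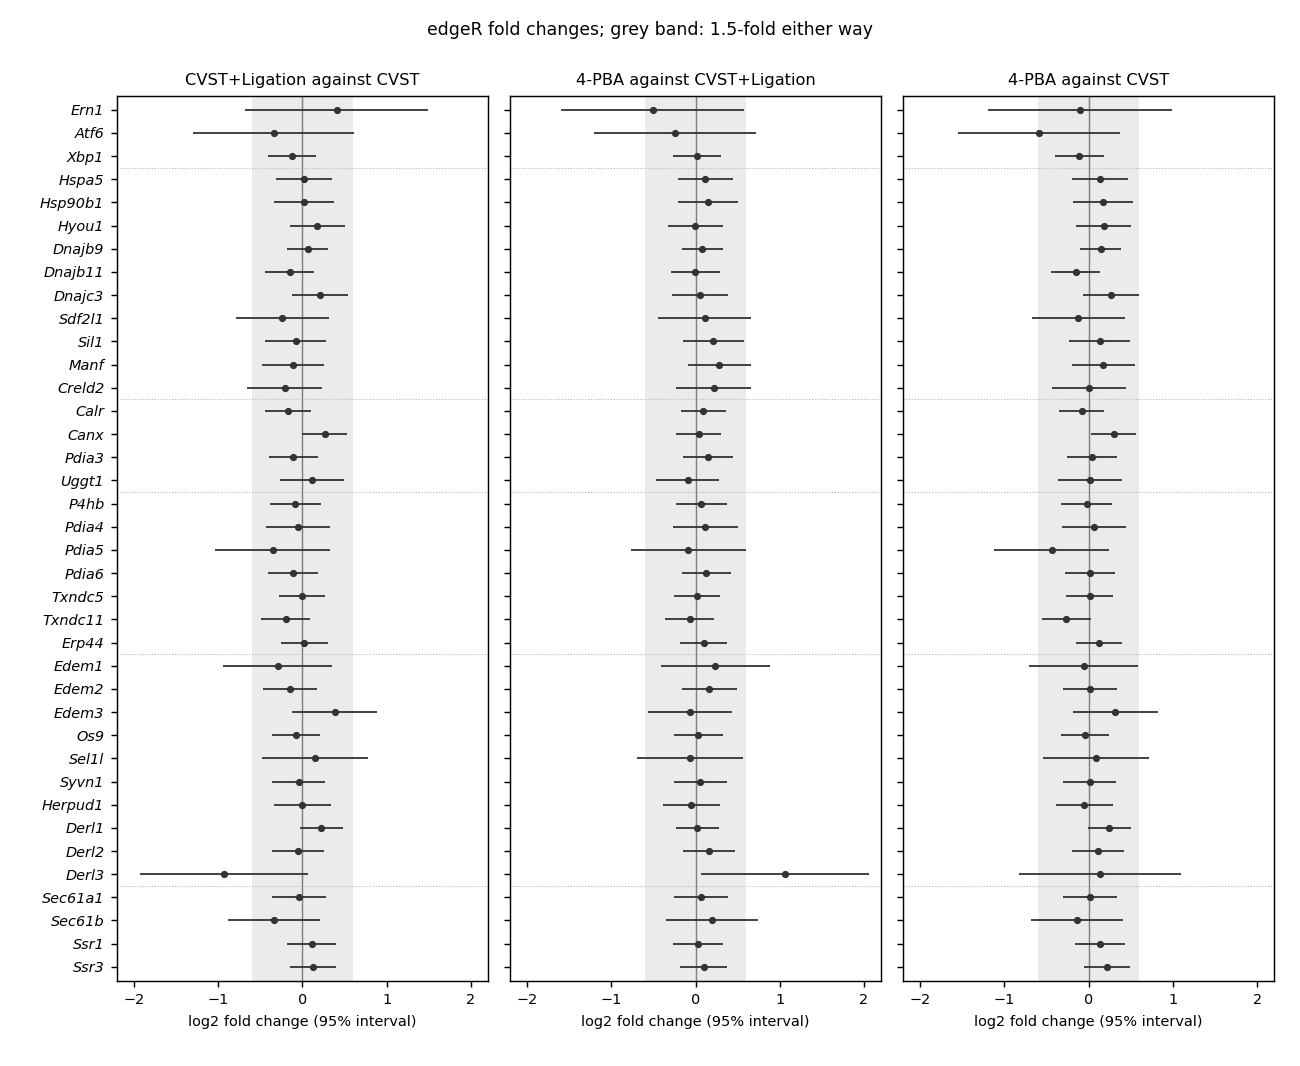
Log2 fold changes of the 38 genes with 95% intervals in the 3 comparisons, from edgeR, in the order of their roles; the grey band marks 1.5-fold either way. In each comparison 28 of the 38 intervals lie inside the band, and the widest belong to Ern1, Atf6 and Derl3.

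Among the sensors, Ern1 and Atf6 varied within groups more than any other of the 38 genes. Ern1 encodes IRE1, the kinase and ribonuclease of the ER membrane (chromosome 11, 106394650 to 106487852, GENCODE on GRCm38). It had 6.37, 4.52 and 1.90 CPM in CVST replicates 1 to 3, 7.36, 6.44 and 3.21 in the CVST+Ligation group and 5.09, 2.40 and 4.50 in the 4-PBA group. The groups overlapped, and the lowest library of all was CVST replicate 3. The log2 fold change after ligation was 0.41 (SE 0.48) and 0.04 without that library. With 4-PBA it was -0.51 (SE 0.48) against the CVST+Ligation group.

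Atf6, the membrane-bound transcription factor (chromosome 1, 170704674 to 170867771), showed the same library at the bottom. Its levels were 52.7, 44.2 and 12.7 CPM in the CVST group, 36.8, 25.1 and 24.7 in the CVST+Ligation group and 21.6, 21.8 and 29.6 in the 4-PBA group. CVST replicates 1 and 2 were the highest of all 9 libraries and replicate 3 the lowest, so the groups overlapped. After ligation the log2 fold change was -0.34 (SE 0.43, adjusted p = 0.808). Without CVST replicate 3 it was -0.77, with an unadjusted p = 0.0105 and an adjusted p = 0.279 by edgeR's quasi-likelihood test. For 4-PBA against CVST the value was -0.59 (SE 0.43, adjusted p = 0.560), and -1.01 without that library (adjusted p = 0.0871). The size of the difference thus depended on 1 library, and with or without it the difference did not pass adjustment.

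Xbp1, the substrate of IRE1 and itself a target of ATF6 (chromosome 11, 5520659 to 5525893), was steadier. It stood at 150.3, 156 and 193 CPM in the CVST group, 147, 156 and 154 in the CVST+Ligation group and 162, 140.2 and 161 in the 4-PBA group. CVST replicate 3 was here the highest library. The log2 fold changes were -0.13 (SE 0.13) after ligation, -0.03 without that library, and 0.02 (SE 0.13) with 4-PBA, and the groups overlapped.

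The BiP and HSP90 system holds ATP-driven folding helpers of the ER lumen and their partners. Hspa5, which encodes BiP, also called GRP78 (chromosome 2, 34771970 to 34777547), is widely read as an indicator of ER stress. It had 738, 728 and 979 CPM in the CVST group, 872, 739 and 864 in the CVST+Ligation group and 929.9, 819 and 936 in the 4-PBA group. CVST replicate 3 exceeded every other library, and the 3 groups overlapped. After ligation the log2 fold change was 0.02 (SE 0.15), with a 95% interval of the fold from 0.807 to 1.27, and 0.15 without CVST replicate 3. With 4-PBA against the CVST+Ligation group it was 0.12 (SE 0.15), with an interval of the fold from 0.864 to 1.36.

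**Figure D2:**
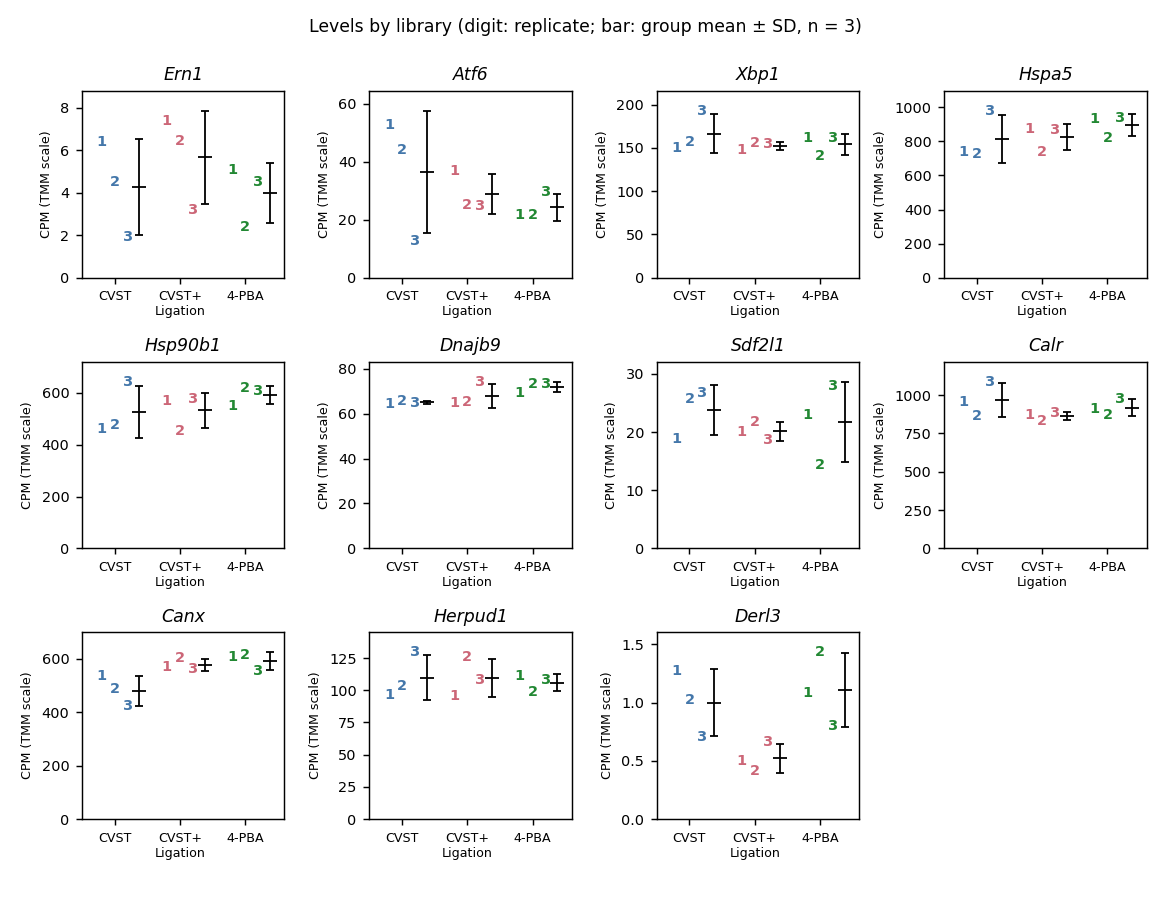
Level of the 11 genes followed in every library, in CPM on the TMM scale with each axis from 0; digits mark the replicate and bars the group mean ± SD (n = 3). In Hspa5, Hsp90b1, Calr and Xbp1 replicate 3 of the CVST group is the highest library, and in Ern1 and Atf6 it is the lowest.

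Hsp90b1, the ER form of HSP90 known as GRP94, followed a similar pattern. It had 459, 477 and 643 CPM in the CVST group, 569, 452 and 575 in the CVST+Ligation group and 551, 617 and 606 in the 4-PBA group. Again CVST replicate 3 was the highest library and the groups overlapped. The log2 fold change was 0.02 (SE 0.16) after ligation, 0.16 without CVST replicate 3, and 0.15 (SE 0.16) with 4-PBA against ligation alone. Against CVST it was 0.17 (SE 0.16), and 0.32 without CVST replicate 3 (unadjusted p = 0.0459, adjusted p = 0.297, edgeR).

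Dnajb9 encodes a BiP co-chaperone, ERdj4, and is a well known XBP1 target. It was among the least variable genes, with 64.4, 65.9 and 64.9 CPM in the CVST group, 64.7, 65.2 and 74.1 in the CVST+Ligation group and 69.3, 73.3 and 73.3 in the 4-PBA group. Every 4-PBA library was above every CVST library, but the difference was small, 0.15 on the log2 scale (SE 0.11, adjusted p = 0.569, edgeR), and the CVST+Ligation group overlapped both.

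Sdf2l1, which helps BiP hold its clients, varied more. It had 18.8, 25.7 and 26.7 CPM in the CVST group, 20.0, 21.8 and 18.6 in the CVST+Ligation group and 23.0, 14.3 and 28.0 in the 4-PBA group. The lowest and the highest of the 9 libraries were both 4-PBA libraries. Its log2 fold changes were -0.24 (SE 0.25) after ligation and 0.11 (SE 0.25) with 4-PBA against ligation alone. The latter ran from -0.11 to 0.34 over the 19 alternatives described at the end and changed sign in 1.

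Over all 10 genes of this system, with Hyou1, Dnajb11, Dnajc3, Sil1, Manf and Creld2, the log2 fold changes ran from -0.24 to 0.21 after ligation and from -0.00 to 0.28 with 4-PBA against ligation alone. The top of the latter range was Manf, a secreted factor of the ER that protects neurons. Its 4-PBA libraries had 115, 102 and 133 CPM, all above the 94.9, 99.4 and 93.7 of the CVST+Ligation group. The log2 fold change was 0.28 (SE 0.17, adjusted p = 0.9998, edgeR), and the CVST libraries, 84.6, 98.1 and 128 CPM, overlapped both groups. After ligation its log2 fold change was -0.11, and 0.05 without CVST replicate 3. Hyou1, a nucleotide exchange factor of BiP, was lowest in CVST replicate 3, at 138 CPM against 199 and 156, and its log2 fold change after ligation was 0.18 with that library and 0.05 without it. Without CVST replicate 1, its highest CVST library, it was 0.33 (unadjusted p = 0.0318, adjusted p = 0.563, edgeR).

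In the lectin chaperone cycle, calreticulin and calnexin hold glycoproteins during folding. Calr encodes the soluble member. Its levels were 957, 863 and 1087 CPM in the CVST group, 866, 831 and 883 in the CVST+Ligation group and 905, 869.5 and 977 in the 4-PBA group. The highest library was CVST replicate 3 and the lowest CVST+Ligation replicate 2, and the groups overlapped. The log2 fold change after ligation was -0.17 (SE 0.12, adjusted p = 0.666, edgeR), and -0.10 without CVST replicate 3.

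Canx, the membrane-anchored member, had 534, 485 and 423 CPM in the CVST group, 568, 602 and 561 in the CVST+Ligation group and 605, 615 and 555 in the 4-PBA group. All 6 libraries of ligated mice lay above the 3 CVST libraries. After ligation the log2 fold change was 0.26 (SE 0.12, unadjusted p = 0.0525, adjusted p = 0.516, edgeR). Its unadjusted p was below 0.05 with total counts (0.0341), the replicate block (0.0354), the length trend removed (0.0464), DESeq2 (0.0376), limma at pseudocounts of 1 and 0.1 (0.0278 and 0.0288) and without CVST replicate 1 (0.0245), and none of these passed adjustment. With 4-PBA against CVST it was 0.30 (SE 0.12, unadjusted p = 0.0313, adjusted p = 0.267, edgeR). Without CVST replicate 3, the lowest library, the values were 0.16 (unadjusted p = 0.174) and 0.20 (unadjusted p = 0.0989, edgeR), so that Canx was no longer below 0.05 in the latter. Its unadjusted p for 4-PBA against CVST was also above 0.05 without CVST replicate 2 (0.0519) or 4-PBA replicate 1 (0.0663) or 2 (0.0985). Calnexin and calreticulin, partners in the same cycle, thus had differences of opposite sign after ligation, neither of which passed adjustment.

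Pdia3, the oxidoreductase that works with both lectins, had log2 fold changes of -0.11 (SE 0.13) after ligation, -0.02 without CVST replicate 3, and 0.14 (SE 0.13) with 4-PBA. Uggt1, the glucosyltransferase that returns unfolded glycoproteins to the cycle, had 0.11 (SE 0.17) and -0.09 (SE 0.17). Its lowest library was CVST replicate 3, at 64.2 CPM against 104 and 75.5, and without it the log2 fold change after ligation was -0.05. Without CVST replicate 1 it was 0.32 (unadjusted p = 0.0369, adjusted p = 0.581, edgeR).

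The thiol oxidoreductases, which form and rearrange disulfide bonds, had 6 of 7 log2 fold changes below 0 after ligation, from -0.35 to 0.02. With 4-PBA against ligation alone 5 of 7 were above 0, from -0.09 to 0.13. Of all genes 50.3% and 47% were above 0 in these comparisons. Without CVST replicate 3 the value of Pdia4 after ligation changed sign, from -0.05 to 0.07. None had an unadjusted p below 0.05 with edgeR in any of the 3 comparisons (all genes 9.64%, 3.23% and 15.4%). P4hb, the archetypal protein disulfide isomerase, had -0.09 (SE 0.14) and 0.07 (SE 0.14), and Pdia6, a regulator of IRE1 signalling, -0.11 (SE 0.13), or -0.02 without CVST replicate 3, and 0.13 (SE 0.13). Txndc11, which serves ERAD, was the gene of this class whose CVST group stood clear, with 51.2, 50.8 and 52.6 CPM. The CVST+Ligation libraries had 43.2, 47.7 and 43.9 CPM and the 4-PBA libraries 38.2, 41.5 and 48.9. All 6 were lower than the CVST libraries, with log2 fold changes of -0.20 (SE 0.13) and -0.27 (SE 0.13, unadjusted p = 0.0683, adjusted p = 0.363 against CVST, edgeR). Without 4-PBA replicate 3 the latter was -0.37 (unadjusted p = 0.0269, adjusted p = 0.247, edgeR). Pdia5, at 3.85 to 9.01 CPM, was the least abundant of the class.

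ERAD pulls misfolded protein back into the cytosol for the proteasome. Herpud1, a membrane organiser of the SYVN1 ligase complex and one of the most inducible ER stress genes (chromosome 8, 94386438 to 94395377), had equal means of 109.6 CPM in the CVST and CVST+Ligation groups. The libraries had 96.3, 103 and 129 CPM in the CVST group, 95.6, 125 and 108 in the CVST+Ligation group and 111, 98.3 and 108 in the 4-PBA group. They overlapped throughout, and the log2 fold changes were 0.00 (SE 0.15), or 0.12 without CVST replicate 3, and -0.05 (SE 0.15).

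Derl3, a derlin of the retrotranslocation channel and a known XBP1 target (chromosome 10, 75893413 to 75895941), had the largest log2 fold changes of the 38 in both comparisons with the CVST+Ligation group and the fewest reads, 8 to 34 per library. It had 1.28, 1.02 and 0.705 CPM in the CVST group, 0.496, 0.412 and 0.659 in the CVST+Ligation group and 1.08, 1.43 and 0.800 in the 4-PBA group. The CVST+Ligation libraries were the lowest 3 of the 9, and the CVST and 4-PBA libraries overlapped. The log2 fold change was -0.93 (SE 0.45, unadjusted p = 0.0647, adjusted p = 0.541, edgeR) after ligation, and -1.14 without CVST replicate 3 (unadjusted p = 0.0422, adjusted p = 0.462). With 4-PBA against ligation alone it was 1.07 (SE 0.45, unadjusted p = 0.0384, adjusted p = 0.9998, edgeR), and 0.83 to 1.27 with 1 library left out at a time. Its unadjusted p was above 0.05 without CVST replicate 2 (0.0535), CVST+Ligation replicate 1 (0.0924) or 2 (0.101), or 4-PBA replicate 1 (0.0693) or 2 (0.145). Markers of plasma and B cells, in which Derl3 is abundant, were near the limit of detection: 2 of 6 were tested, and their sum was 0.381 to 1.39 CPM with overlapping ranges in the 3 groups.

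Its relatives were far more abundant and had smaller log2 fold changes. Derl1, at 39.6 to 51.9 CPM, was lower in the 3 CVST libraries than in all 6 others, with log2 fold changes of 0.22 (SE 0.11) after ligation and 0.24 (SE 0.11) for 4-PBA against CVST (adjusted p = 0.560 and 0.344, edgeR). In both comparisons its unadjusted p was below 0.05 with total counts (0.0462 and 0.0220) and the length trend removed (0.0322 and 0.0367). So it was with DESeq2 (0.03835 and 0.0195) and limma at pseudocounts of 1 (0.0269 and 0.0112) and 0.1 (0.0302 and 0.0128). None of these passed adjustment. Without CVST replicate 3 the log2 fold changes were 0.23 and 0.25 (unadjusted p = 0.0829 and 0.0598, edgeR). Derl1 also had the smallest spread within groups of the 38, an SD of 0.066 on the log2 scale. Derl2, at 22.6 to 28.5 CPM, had log2 fold changes of -0.05 (SE 0.14) after ligation and 0.16 (SE 0.14) with 4-PBA.

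Sel1l, the adaptor of the SYVN1 ligase, and Edem3, a mannosidase that marks glycoproteins for disposal, joined Ern1 and Atf6 as genes that were low in CVST replicate 3. Sel1l had 57.1 CPM there and 96.4 to 134 in the other 8 libraries. Edem3 had 18.1 CPM there and 27.8 to 38.4 elsewhere. Their log2 fold changes after ligation were 0.15 (SE 0.28) and 0.38 (SE 0.22). Without that library the value of Sel1l changed sign, to -0.16 (SE 0.17), and that of Edem3 was 0.14 (SE 0.17). Without CVST replicate 1 that of Edem3 was 0.61 (unadjusted p = 0.0229, adjusted p = 0.560, edgeR). Syvn1, the ligase itself, ranged from 33.0 to 41.6 CPM. Edem1, a related lectin and XBP1 target, ranged from 14.5 to 30.1 CPM, with -0.29 (SE 0.29) after ligation and 0.23 (SE 0.29) with 4-PBA. Edem2 and Os9 lay within 0.17 of 0 on the log2 scale in both comparisons.

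**Figure D3:**
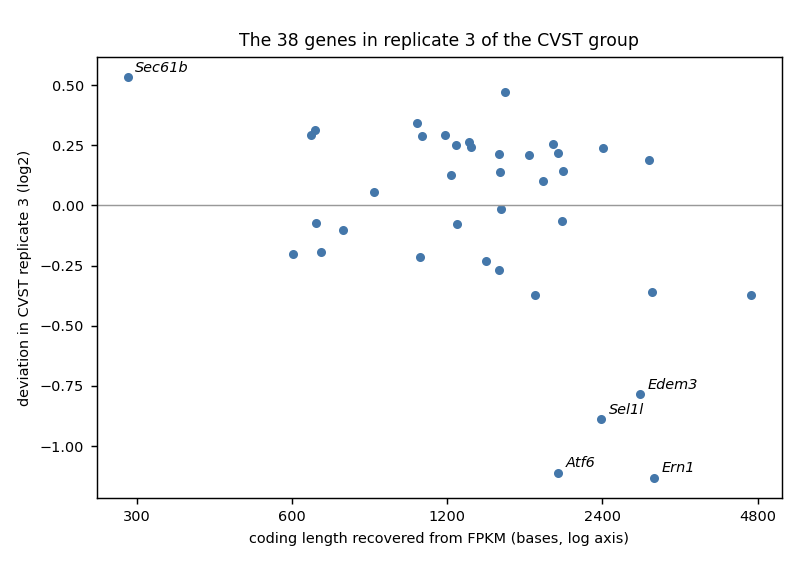
Deviation of each of the 38 genes in CVST replicate 3 from its own mean over 9 libraries (log2 CPM) against its coding length in bases (log axis). Ern1, Atf6, Sel1l and Edem3 lie lowest, between -1.13 and -0.79, and Sec61b, the shortest, lies highest at 0.53.

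The translocon genes, which admit new chains into the ER, had no unadjusted p below 0.05 with edgeR and all libraries (all genes 9.64%, 3.23% and 15.4%). For 4-PBA against CVST, Ssr3 had one with limma (0.0295 and 0.0319 at pseudocounts of 1 and 0.1) and with total counts (0.0455), and Ssr1 (0.0452) and Ssr3 (0.0316) had one without CVST replicate 1. Sec61a1, its channel, had log2 fold changes of -0.04 (SE 0.14) after ligation, -0.17 without CVST replicate 3, and 0.06 (SE 0.14) with 4-PBA. Sec61b, a small subunit, ranged from 17.9 CPM in 4-PBA replicate 1 to 34.0 in CVST replicate 3, with -0.34 (SE 0.24), or -0.15 without CVST replicate 3, and 0.20 (SE 0.24). Ssr1 and Ssr3, of the associated TRAP complex, had 0.11 (SE 0.13) and 0.13 (SE 0.12) after ligation, and 0.02 and 0.06 without that library. All 4 had values above 0 with 4-PBA, from 0.03 to 0.20.

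Single libraries also stood out over the whole set. In 4-PBA replicate 3, 32 of the 38 genes were above their own mean, beside 7271 of all 14746 genes tested, and 10, or 26.3%, were at their highest, beside 7.2% of all genes tested. Its median deviation was 0.11 on the log2 scale, against 0.03 and -0.02 in the other 4-PBA replicates. Without it the median log2 fold change of the 38 genes with 4-PBA against ligation alone was 0.05. The CVST replicates had medians of -0.04, -0.04 and 0.11, and the CVST+Ligation replicates -0.06, -0.00 and -0.03. The 9 genes with an ERSE had a median deviation of 0.22 in CVST replicate 3 and of 0.13 in 4-PBA replicate 3, beside 0.13 and 0.11 for the 23 without one. Their median log2 fold change was -0.04 after ligation, beside -0.05 for the others. Of the 9 and the 23, 4 and 8 were above 0 (all genes 50.3%). With 4-PBA against ligation alone the medians were 0.12 and 0.04, with 9 of 9 and 15 of 23 above 0 (all genes 47%). The 4-PBA libraries had median deviations of 0.059, -0.035 and 0.134 over the 9 genes. Those of the CVST+Ligation libraries, 0.051, -0.167 and -0.045, overlapped them. Genes measured in the same mice are not independent.

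**Figure D4:**
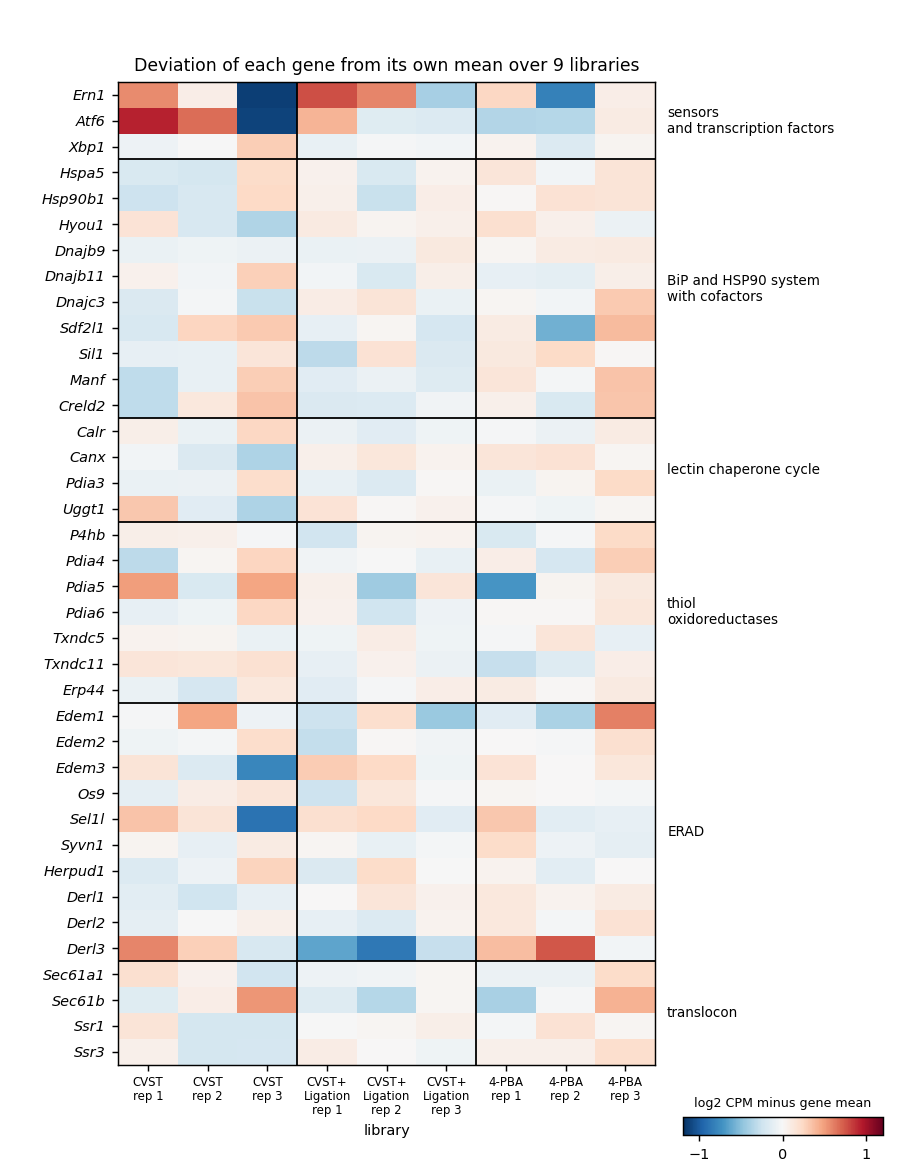
Deviation of each gene from its own mean over the 9 libraries on the log2 scale, with libraries in columns by group and genes in rows by role. CVST replicate 3 holds the lowest deviations, in Ern1 (-1.13) and Atf6 (-1.11), together with positive ones in chaperones such as Hspa5 (0.22), and 4-PBA replicate 3 is above the mean in 32 of 38 genes.

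Within groups these genes were steadier than most. The median SD within groups was 0.154 on the log2 scale over the 38, against 0.30 over all genes tested. It was 0.281 over the genes tested at or above the mean level of the lowest of the 38. Neither set is matched to the 38 in level, and genes of like abundance were not compared. The smallest belonged to Derl1 and Dnajb9 (0.066 and 0.069) and the largest to Ern1 and Atf6 (0.704 and 0.685). The median SE of the log2 fold change after ligation was 0.146 for the 38 and 0.242 over all genes.

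Per length, most of the machinery was highly expressed in these brains. In FPKM, which divides by gene length, the median of the 38 genes was 61.1 against 5.12 over all genes of the table. Calr was highest, at 733 ± 55.9 FPKM (SD, n = 9 libraries), followed by Hspa5 with 429.7 ± 48.8, Pdia3 with 378 ± 38.1, Canx with 311 ± 41.2 and Hsp90b1 with 228 ± 29.3. Xbp1 lay above the median of the 38, at 133 ± 11.1, and the sensors Atf6 and Ern1 lay below it, at 15.2 ± 6.23 and 1.54 ± 0.635. Derl3 was last at 1.28 ± 0.509, below Pdia5 at 4.21 ± 1.01. Of the 37 pairs of neighbours in this order, 8 kept it in all 9 libraries, among them Calr above Hspa5, Hspa5 above Pdia3 and Pdia5 above Ern1. The other 29 changed places in at least 1 library.

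**Figure D5:**
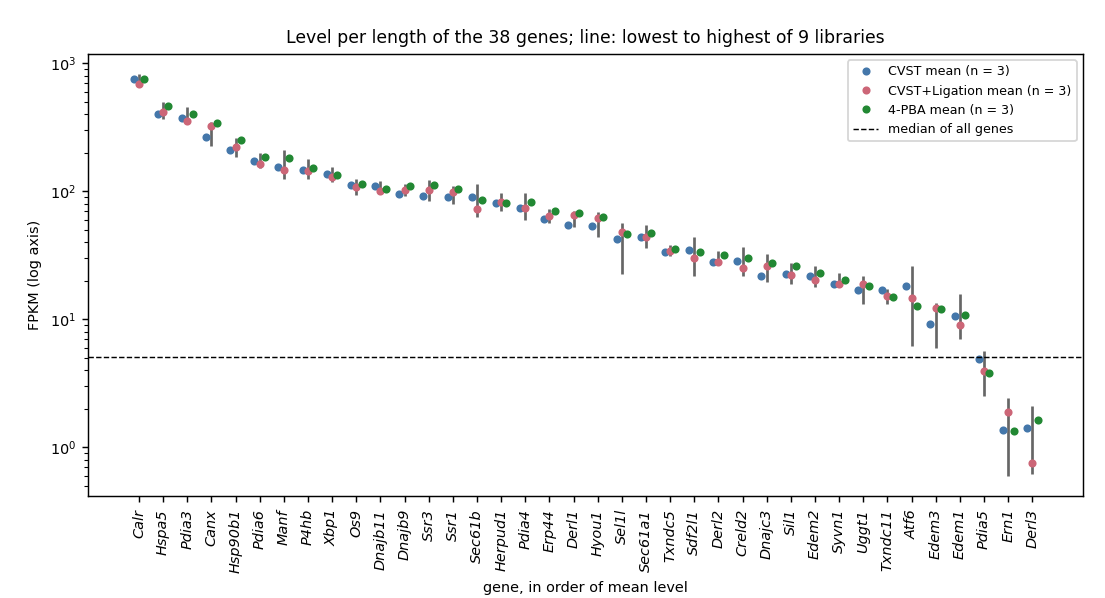
Mean level of the 38 genes in each group in FPKM on a log axis, in order of their mean, with a line from the lowest to the highest of 9 libraries. Levels run from 733 for Calr to 1.28 for Derl3, and 35 genes lie above the median of all genes, 5.12, shown as a dashed line.

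The other genes of ER folding, translocation and quality control were read from a separate list. Of 74 listed, 72 were tested, and 1 was higher and 0 lower after ligation at an unadjusted p below 0.05, beside 5.47% and 4.18% of all genes. It was Tmx4, a membrane thioredoxin, at 77.9 and 110.1 CPM (log2 fold change 0.50, SE 0.20, adjusted p = 0.465, edgeR). With 4-PBA against ligation alone 0 were higher and 1 was lower (1.81% and 1.42% of all genes), Creb3l3, at 0.392 against 1.10 CPM. Against CVST, where 8.07% of all genes were higher and 7.33% lower, Tmx4 was higher and Stt3b, a catalytic subunit of the oligosaccharyltransferase, lower (log2 fold change -0.37, SE 0.13, adjusted p = 0.230, edgeR). None of the 72 passed adjustment in any of the 3 comparisons. Of the 72, 37 had a log2 fold change above 0 after ligation (all genes 50.3%). With 4-PBA 45 did so against ligation alone (47%) and 45 against CVST (48.9%). The medians were 0.01, 0.03 and 0.07, beside 0.00, -0.02 and -0.01 over all genes.

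In the PERK arm, which the 38 genes leave out, 26 of 26 listed genes were tested. After ligation 0 were higher and 1 lower (5.47% and 4.18% of all genes), Nupr1, a stress-induced chromatin factor, at 25.3 against 65.5 CPM (log2 fold change -1.37, SE 0.57, adjusted p = 0.488, edgeR). With 4-PBA against ligation alone none had an unadjusted p below 0.05 (all genes 3.23%). Against CVST 4 were lower in the 4-PBA group and 0 higher, beside 7.33% and 8.07% of all genes. They were Nupr1 (log2 fold change -1.93, SE 0.58, adjusted p = 0.159, edgeR), Slc3a2, a subunit of amino acid transporters (-0.42, SE 0.15), Ddit3, which encodes CHOP (-0.40, SE 0.14), and Asns, asparagine synthetase (-0.32, SE 0.14). None passed adjustment. Over the whole list 13 of the 26 log2 fold changes were above 0 after ligation (all genes 50.3%) and 12 of 26 for 4-PBA against CVST (48.9%), with a median of -0.02 in both, beside 0.00 and -0.01 over all genes. For 4-PBA against ligation alone 7 of 26 were above 0 (47%), with a median of -0.08 beside -0.02.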

How the data were processed

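Brain RNA of 9 mice was analysed, 3 per group, with groups and replicate numbers from the sample labels. The authors filtered reads with fastp, aligned them with HISAT2 to mm10 (GRCm38) and named StringTie and RSEM; versions and the counting program are not given in the sources used here. They deposited whole-number counts per gene symbol, without normalization, and values that the methods call TPM but that equal FPKM: each is the count per total and per 1 length per gene (17446 genes), and the columns sum to 780195 to 879696. Of these lengths 74.8% are multiples of 3, and they are called coding lengths here. How reads of overlapping genes were counted is not stated; exons of 7 of the 38 genes (Manf, Pdia3, Pdia6, Txndc5, Txndc11, Syvn1 and Derl2) overlap another counted gene in GENCODE M21, and their counts are uncertain to that extent.

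The count model was edgeR 4.0.16 under R 4.3.3 (TMM, filterByExpr, glmQLFit and glmQLFTest, 3 groups, no covariates), and 14746 genes were tested. Log2 CPM used a prior count of 2. The common biological coefficient of variation was 0.287, and no library repeated another of its own group (chi-square per degree of freedom at least 24.6 over 9 pairs). Totals of 18100739 to 25091498 counts set the precision, and floors cover counting error only. Although no measured threshold set the list, the 38 genes, the other lists and the tests were chosen with earlier results of these data known. Values in every library are given for 10 genes chosen by role (Ern1, Atf6, Xbp1, Hspa5, Hsp90b1, Dnajb9, Sdf2l1, Herpud1, Calr and Derl3) and for any of the 38 with an unadjusted p below 0.05, which added Canx. Others named with library values, such as Manf, Hyou1, Uggt1, Txndc11, Sel1l and Edem3, were picked after their values were seen. From the other lists genes with an unadjusted p below 0.05 are named. Alternatives were other scalings and filters, DESeq2 1.42.0, limma 3.58.1 on log2(FPKM + 1) and log2(FPKM + 0.1), planned for TPM, a length correction, the replicate block, only the groups compared, and each library left out. Promoters are from RefSeq, and plots were drawn with matplotlib 3.10.9.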

Additional observations from a re-analysis of the deposited data

How the results depend on the processing

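At an adjusted p below 0.05 none of the 38 genes passed under any of the 19 alternatives of the 3 comparisons, where the lowest adjusted p was 0.0871, for Atf6 in 4-PBA against CVST without CVST replicate 3. The number with an unadjusted p below 0.05 moved. With 1 library left out at a time it was 0 to 4 after ligation, 0 to 2 for 4-PBA against ligation alone and 0 to 5 for 4-PBA against CVST, where 4 (Hyou1, Canx, Uggt1, Edem3) and 5 (Hyou1, Canx, Edem3, Ssr1, Ssr3) were reached without CVST replicate 1, 10.5% and 13.2% of the 38 beside 8.42% and 11.8% of all genes. Over all genes the shares with 1 library left out were 8.07% to 11.1%, 1.72% to 10% and 10.1% to 19.1%. Without CVST replicate 3 the 3 counts were 2, 2 and 3, the last Atf6, Hsp90b1 and Manf without Canx. For 4-PBA against ligation alone it was 0 without CVST replicate 2, CVST+Ligation replicate 1 or 4-PBA replicate 1 or 2. For 4-PBA against CVST it was 0 without CVST replicate 2 or 4-PBA replicate 1 or 2, and 2 without CVST+Ligation replicate 2 or 4-PBA replicate 3. After ligation (0 in the fit reported) it was 2 with total counts, 2 with the length trend removed, 2 with DESeq2 and 3 with limma at either pseudocount, where 9.16% to 11.4% of all genes passed. For 4-PBA against ligation alone (1) it was 0 with all genes of at least 1 count and 0 with only genes of at least 10 counts in every library, a filter that drops Derl3. For 4-PBA against CVST (1) it was 3 with total counts, 2 with the length trend removed, 2 with DESeq2 and 4 with limma at either pseudocount, where 15.4% to 17.7% of all genes passed. The median log2 fold change in that comparison was 0.02, and 0.092 with total counts, 0.10 with limma at a pseudocount of 1 and 0.10 at 0.1. The median of all genes moved with it, from -0.01 to 0.063, 0.059 and 0.070. The other medians moved by less than the spread between replicates. Of the 33 fold changes of the 11 genes followed in every library, 21 kept their sign in every alternative. Hspa5 after ligation changed sign in 5 of 19, between -0.06 and 0.15, and Atf6 in 1 of 19, between -0.77 and 0.01.

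When the replicate number entered as a block, 1 gene had an unadjusted p below 0.05 after ligation (Canx), 0 for 4-PBA against ligation alone and 1 for 4-PBA against CVST (Canx), beside 12%, 3.53% and 17.9% of all genes. Same-numbered libraries of different groups correlated in their deviations with r between -0.05 and 0.32, over 0.1 in 4 of 9 pairs, and in 12 of 18 cases a library correlated best with its own number. Of the pairs with different numbers, 1 of 18 was over 0.1. The labels name no shared litter or day, so what same-numbered libraries share besides the number is not known. Derl3, with 8 to 34 counts per library, is the gene that depth limits most.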
